A study of Sus scrofa with 8 samples.

Results

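Chemokines are small secreted proteins that attract leukocytes through G protein-coupled receptors, and interleukins are secreted signals read by receptor chains that pair at the cell surface and act mostly through JAK-STAT or NF-kB signalling. In a developing limb these genes are carried by macrophages, vessels, connective tissue, skin and the muscle itself. The genes described here are the rows of a pig gene count table whose symbol is CCL, CXCL, CCR, CXCR or IL followed by a number, receptor suffixes included. The rule used no measured value and found 105 of 22516 rows: 17 CC chemokine ligands, 7 CXC ligands, 9 CC receptors, 4 CXC receptors, 31 interleukin ligands, 36 interleukin receptor chains and IL4I1, an amino acid oxidase whose symbol meets the rule. Symbols were known for 15527 of the 22516 rows (69%), so members without one are not included, and the fractalkine pair CX3CL1 and CX3CR1 lies outside the rule.

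Limb muscle tissue of pig embryos was sequenced in bulk in 8 libraries, 2 for each of 4 groups. The groups were wild type at embryonic day 41 (E41), knockout of MYF5, MYOD and MYF6 at E41, wild type at E62, and the same triple knockout at E62. MYF5, MYOD and MYF6 are transcription factors that commit cells to skeletal muscle. Samples are labelled knockout although the title of the series reads knockdown, and for the later stage the protocol of tissue collection names day 60. Titles call the 2 libraries of a group biological replicates without naming the animals. Library names hold Emb1 and Emb4 in knockout E62 and differ by a digit after a shared number in the other groups, without an explanation. A p-value here therefore reflects only how far these libraries spread, which may be technical. Library names carry a number that is different in each group and an unexplained code that is LHL in wild-type E41 and RHL elsewhere. Knockout E62 names also lack the ending L001 that all other names carry. These differences and the groups cannot be told apart. How the knockout was made, and whether embryos of a group came from 1 clone or 1 litter, are not stated in the labels.

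MYF5 and MYF6 had 0 counts in all 4 knockout libraries, which checks those labels. MYOD1 stood at 0.434 to 1.47 CPM (counts scaled to a common library size, with TMM factors) in the knockout against 72.6 to 172 CPM in wild type. The tissue label was checked against 15 measured skeletal muscle markers, whose summed level was 16290 and 14940 CPM in wild-type E41 and 36710 and 43790 CPM in wild-type E62. In the knockout this sum was 30.4 and 27.1 CPM at E41 and 14.62 and 20.11 CPM at E62, so the knockout tissue went against its label of muscle, and all 15 markers were lower at both stages. Library totals ranged from 23402052 to 60539245 counts. The 2 knockout E62 libraries differed most in the 105 genes: the correlation of their log2 values across these genes was 0.888, against 0.966 to 0.983 in the other groups, and genes are not independent replicates. Their summed keratinocyte markers differed too, at 1113 CPM in replicate 1 and 54 CPM in replicate 2, and results that rest on 1 of these libraries are given with that library left out.

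Of the 105 genes, 74 passed the filter on low counts and were tested in edgeR with all other genes, by a two-sided quasi-likelihood test whose p-values were adjusted (Benjamini-Hochberg) over 17020 genes, with a threshold of 0.05. Changes are log2 fold changes ± standard error (SE), with n = 2 libraries per group; a gene is called higher or lower when it passed that threshold. Where a call was lost on leaving out a library or changing a setting, the value in brackets is the adjusted p then found, and "without either" means with each of the 2 libraries left out in turn. These lists do not hold calls lost with the replicate number as a block, since the numbers did not pair the libraries. At E41 15 members were higher in the knockout and 6 lower, 28.4% of the 74, where 39.2% of the 17020 tested genes were called, 18.5% higher and 20.8% lower. At E62 32 were higher and 11 lower, 58.1% of the 74, beside a background of 47.2%, made of 21% higher and 26.2% lower. The median log2 change of the tested members was 0.575 at E41 and 1.398 at E62, against 0.089 and 0.06 over all tested genes. With genes of 3 counts or fewer in a group set at the bound their counts give, the member medians were 0.545 and 1.296. A gene that passed the filter only through the group where it is high had to differ, so these shares are descriptions. The libraries of both genotypes did not overlap for 54 of the 74 at E41 and 61 at E62, where 73.3% and 77.4% of all tested genes did not. The number of members called fell to 7 of 77 tested at E41 without knockout E41 replicate 2, where 4036 of 17412 genes were called in that fit against 6678 of 17020 with all libraries. At E62 it fell to 21 of 77 without wild-type E62 replicate 1, with 5816 of 17570 genes called against 8028.

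**Figure D1:**
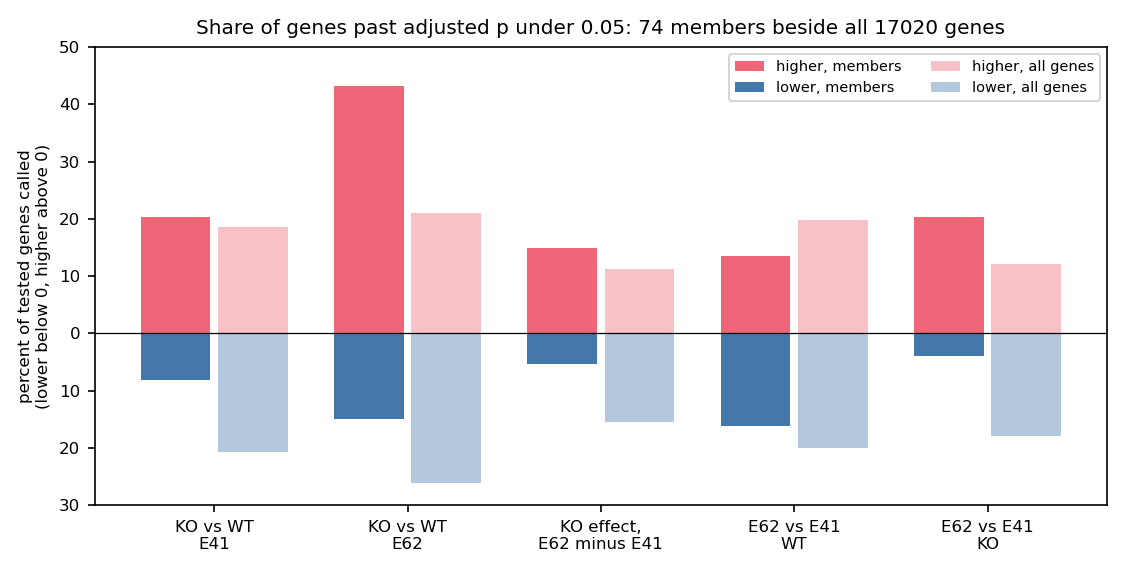
Bars give the percent of genes past the threshold in each of the 5 comparisons, higher above 0 and lower below 0, for the 74 tested members (solid) and all 17020 tested genes (pale). For knockout against wild type at E62, 43.2% of members and 21% of all genes were higher, and 14.9% and 26.2% were lower.

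The 17 calls shared by both stages were 10 higher (CCL21, CCR3, CXCR5, IL16, IL34, IL10RA, IL11RA, IL1RAPL1, IL2RB and IL6R), 5 lower (IL17B, IL18, IL10RB, IL13RA1 and IL17RD) and 2 opposite (IL17D and IL1R1, higher at E41 and lower at E62). Another 4 members were called at E41 alone and 26 at E62 alone, which does not show that their effects differed. The difference itself was tested with an interaction term. It was called for 15 of the 74 members (20.3%, beside 26.8% of all tested genes), 11 with a higher knockout effect at E62 and 4 with a lower one, where 11.2% and 15.5% of all genes were. The range on leaving out 1 library was 5 members, without knockout E41 replicate 1, to 22, where calls over all genes ranged from 2499 to 4282. DESeq2 called 24 members and 5183 genes, against 4553 genes in edgeR.

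**Figure D2:**
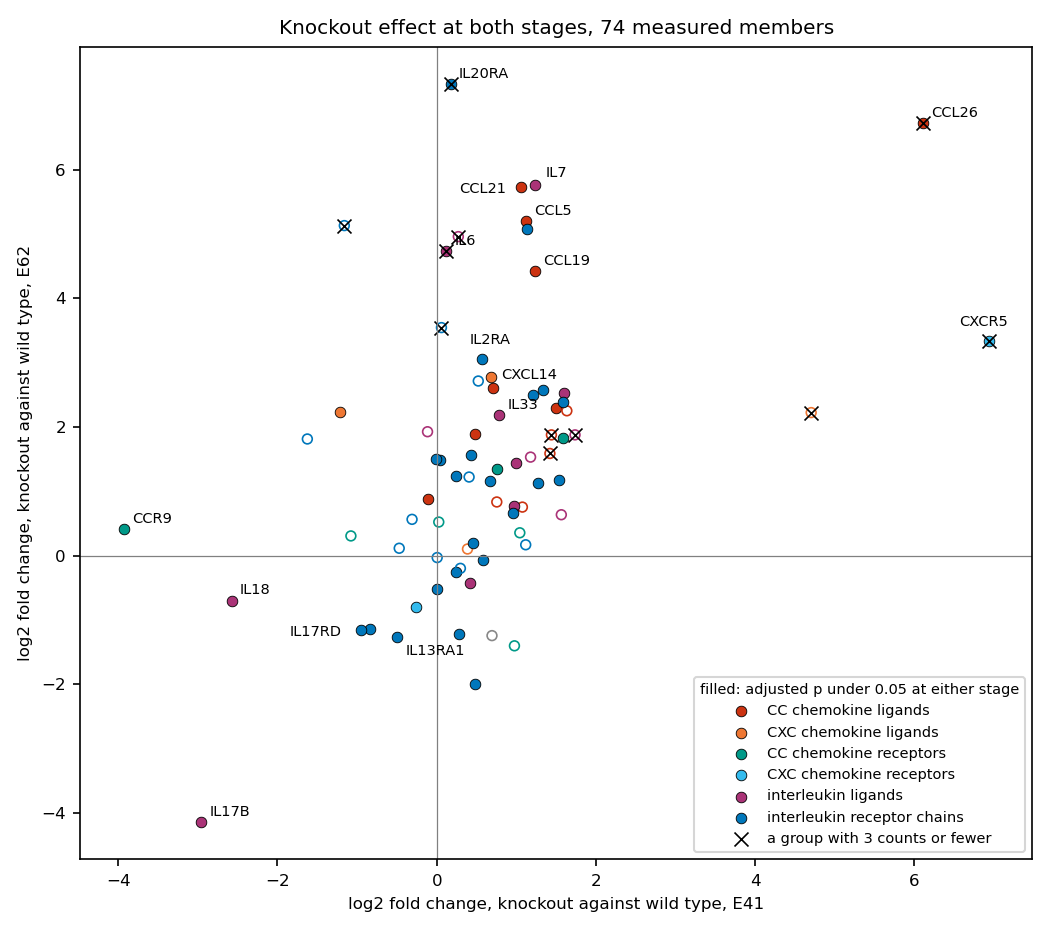
Each point is 1 of the 74 tested members, with the log2 fold change of knockout against wild type at E41 on the horizontal axis and at E62 on the vertical axis. Filled points were called at either stage, and crosses mark members with 3 counts or fewer in a group, whose fitted change is not a measured size; CCL21 lies at 1.06 and 5.74 and IL17B at -2.96 and -4.14.

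Of the 17 CC chemokine ligands, 13 were tested. In the knockout 8 rose at E62 (61.5%, beside 21% of all tested genes) and 1 rose at E41 (7.69%, beside 18.5%). None fell in edgeR or DESeq2, and 0 fell at an unadjusted p under 0.05. They included CCL21 and CCL19, the ligands of CCR7 that guide dendritic cells and lymphocytes, CCL2 and CCL8, which attract monocytes, and CCL5, a ligand of CCR1 and CCR3. Fewer cells of a type and less RNA per cell cannot be told apart in bulk tissue, here and in all that follows. CCL21 (ENSSSCG00000038162, chromosome 10, 32093783 to 32094482 in Sscrofa11.1), which lymphatic endothelium secretes, stood at 20.05 and 19.02 CPM in E41 wild type, 43.6 and 38.2 in E41 knockout, 2.71 and 4.18 in E62 wild type, and 155 and 214 in E62 knockout. Both knockout E62 libraries lay far above every other library and both wild-type E62 libraries were lowest, with no overlap at either stage. Its log2 fold change was 5.74 ± 0.26, adjusted p = 5.6e-06 at E62 and 1.06 ± 0.21, adjusted p = 0.0074 at E41, where it missed the threshold without wild-type E41 replicate 2 (adjusted p = 0.052). The effect was larger at E62 by 4.67 ± 0.32, adjusted p = 0.00058.

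CCL19 was at 2.37 and 1.11 CPM in E41 wild type, 4.07 and 4.06 in E41 knockout, 0.451 and 0.383 in E62 wild type, and 2.82 and 15.2 in E62 knockout. The knockout E62 replicates lay far apart, and both stayed above wild-type E62. Its log2 change at E62 was 4.42 ± 0.88, adjusted p = 0.0067. It was 2.75 without knockout E62 replicate 2, and the call was lost without either wild-type E62 library (adjusted p = 0.055 for each). At E41 the change was 1.23 ± 0.77, adjusted p = 0.25. Their shared receptor CCR7 was at 0.435 and 0.708 CPM in E41 wild type, 0.581 and 0.586 in E41 knockout, 1.02 and 0.854 in E62 wild type, and 1.18 and 1.52 in E62 knockout and was called at neither stage (adjusted p = 0.97 and 0.33). ACKR4, which takes up CCL19 and CCL21 without signalling, was not called either (adjusted p = 0.45 at E41 and 0.18 at E62).

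The 2 monocyte attractants moved at the later stage. CCL2 was at 6.04 and 4.69 CPM in E41 wild type, 6.57 and 8.38 in E41 knockout, 3.97 and 6.95 in E62 wild type, and 14.5 and 26 in E62 knockout. Only the knockout E62 pair stood apart, above all other libraries, with a log2 fold change of 1.89 ± 0.36, adjusted p = 0.0047, and 0.48 ± 0.36, adjusted p = 0.34 at E41. CCL8 was at 1.11 and 1.73 CPM in E41 wild type, 2.13 and 2.52 in E41 knockout, 1.23 and 1.86 in E62 wild type, and 8.73 and 10.2 in E62 knockout. Again the knockout E62 pair was above every other library, at 2.61 ± 0.32, adjusted p = 0.00043, and the effect exceeded that at E41 by 1.903 ± 0.44, adjusted p = 0.017. CCL8 lost this difference between stages, by adjusted p, without wild-type E41 replicate 2 (0.058), without knockout E41 replicate 1 (0.072) and without wild-type E62 replicate 1 (0.052). Their usual receptor, CCR2, was not analysed here.

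CCL5, a product of T cells, macrophages and platelets, was at 0.386 and 0.3097 CPM in E41 wild type, 0.926 and 0.586 in E41 knockout, 0.0902 and 0.0589 in E62 wild type, and 2.69 and 3.004 in E62 knockout. The wild type was lowest at E62 and the knockout highest there, so the log2 change was 5.2 ± 0.53, adjusted p = 0.00017, and 1.12 ± 0.46, adjusted p = 0.088 at E41. The difference between stages was 4.08 ± 0.704, adjusted p = 0.0058. CCL14, a ligand of CCR1 that circulates in plasma, was at 6.96 and 4.73 CPM in E41 wild type, 5.77 and 5.02 in E41 knockout, 5.47 and 5.15 in E62 wild type, and 9.604 and 9.96 in E62 knockout. Its log2 change at E62 was 0.88 ± 0.22, adjusted p = 0.013. CCL14 lost this call, by adjusted p, without either wild-type E62 library (0.054 and 0.066). CCL4 and CCL3L1, inflammatory ligands from a family of close copies between which estimated counts may divide reads, both had their highest libraries in knockout E62. CCL4 was at 0.531 and 1.68 CPM in E41 wild type, 1.399 and 2.37 in E41 knockout, 2.53 and 5.45 in E62 wild type, and 5.62 and 8.61 in E62 knockout, with a log2 fold change of 0.83 ± 0.56, adjusted p = 0.25 at E62. CCL3L1 was at 1.28 and 1.502 CPM in knockout E62 and at most 0.782 CPM elsewhere, 2.29 ± 0.66, adjusted p = 0.023 at E62. It lost this call, by adjusted p, without either wild-type E62 library (0.13 and 0.081) and without knockout E62 replicate 2 (0.067). CCL26, a ligand of CCR3, had 0 and 0 counts in E41 wild type, 18 and 1 in E41 knockout, 0 and 1 in E62 wild type, and 20 and 209 in E62 knockout. At E62 it was 120.5-fold higher (95% counting interval 21.4 to 4780) by summed counts, nearly all from knockout replicate 2. CCL26 lost the call, by adjusted p, without either wild-type E41 library (0.058 and 0.058), without either wild-type E62 library (0.21 and 0.16), without knockout E62 replicate 2 (0.14) and without the low-count filter (0.061). The 4 other tested ligands, CCL11, CCL25, CCL27 and CCL28, were called in no comparison of genotypes, with highest libraries between 0.295 and 2.77 CPM.

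**Figure D3:**
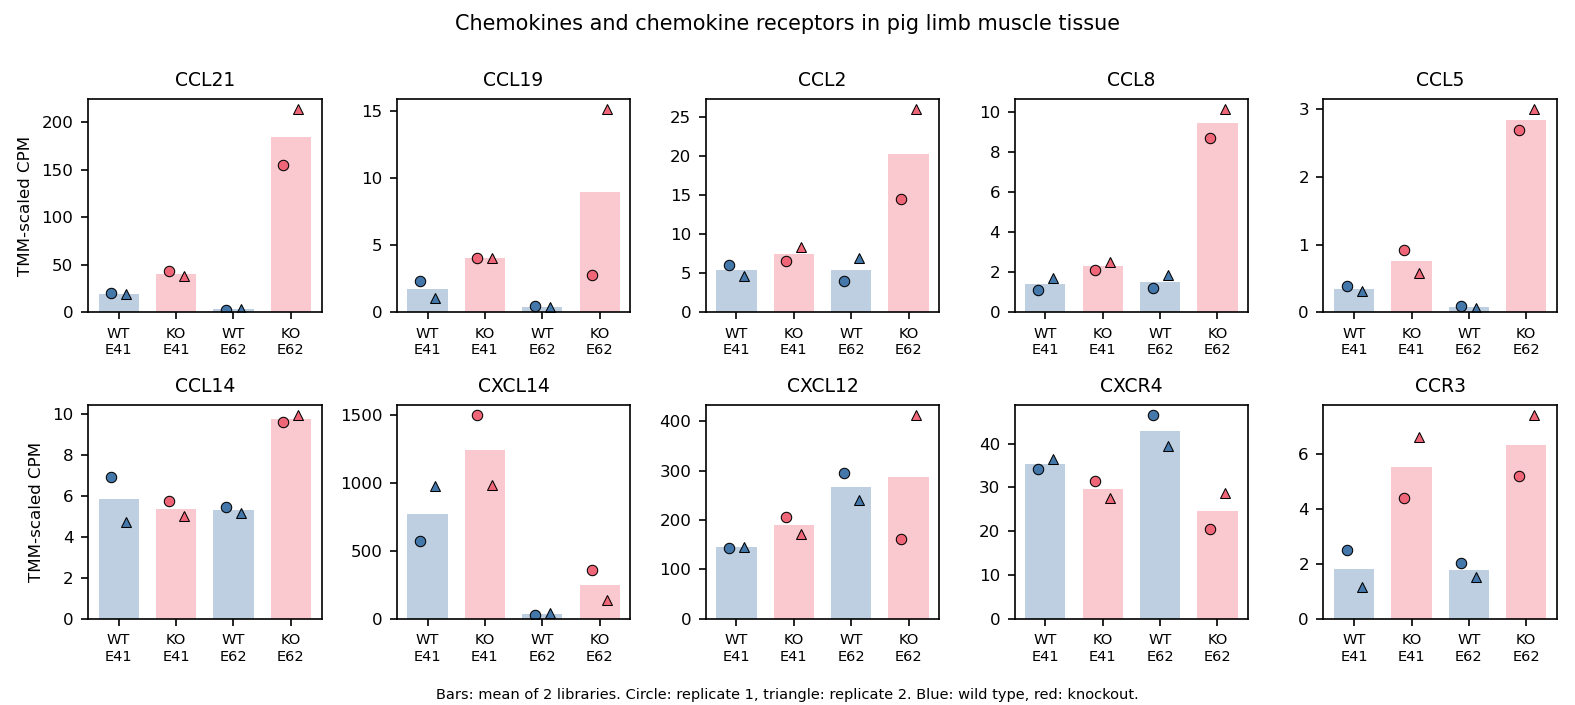
Points give TMM-scaled CPM of each library for 10 chemokine system genes, circles for replicate 1 and triangles for replicate 2, and bars give the mean of the 2 libraries of a group; each panel has its own axis from 0. CCL21, CCL2, CCL8 and CCL5 have both knockout E62 libraries above every other library, while CXCR4 has them below all wild-type libraries.

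Among CXC ligands and receptors, CXCL14 and CXCL10 rose at E62, CXCR4 fell at E62, and CXCL12 was not called. CXCR5, given below with the CC receptors, rose at both stages on few counts. CXCL12, the ligand that guides CXCR4-bearing progenitors, including migrating muscle precursors, was at 144 and 145 CPM in E41 wild type, 207 and 171 in E41 knockout, 295 and 239.7 in E62 wild type, and 162 and 412 in E62 knockout. The knockout E62 libraries lay on both sides of the wild-type pair, and the log2 changes were 0.39 ± 0.41, adjusted p = 0.504 at E41 and 0.103 ± 0.41, adjusted p = 0.85 at E62. CXCR4 (ENSSSCG00000039416, chromosome 15, 15663652 to 15666706) was at 34.2 and 36.5 CPM in E41 wild type, 31.5 and 27.7 in E41 knockout, 46.5 and 39.4 in E62 wild type, and 20.6 and 28.8 in E62 knockout. The knockout libraries were below the wild type at both stages without overlap, with a log2 fold change of -0.799 ± 0.17, adjusted p = 0.00596 at E62 and -0.26 ± 0.17, adjusted p = 0.26 at E41. The difference between stages missed the threshold (adjusted p = 0.13). ACKR3, the other CXCL12 receptor, which clears the ligand, was at 20.05 and 21.6 CPM in E41 wild type, 46.7 and 43.6 in E41 knockout, 12.3 and 9.98 in E62 wild type, and 25.7 and 26.5 in E62 knockout. It moved the opposite way from CXCR4: ACKR3 rose at E41 by 1.12 ± 0.12, adjusted p = 0.00044 and at E62 by 1.23 ± 0.12, adjusted p = 0.00016.

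CXCL14 (ENSSSCG00000014310, chromosome 2, 137803988 to 137813118), a chemokine of epithelia and connective tissue, was at 568 and 979 CPM in E41 wild type, 1496 and 982 in E41 knockout, 26.8 and 46.03 in E62 wild type, and 358 and 140.5 in E62 knockout. Both genotypes had their high libraries at E41, and at E62 both knockout libraries stayed above the wild type. The log2 change was 2.77 ± 0.59, adjusted p = 0.013 at E62, lost without wild-type E62 replicate 1 (adjusted p = 0.077), and 0.68 ± 0.55, adjusted p = 0.38 at E41. The E62 level was higher in the knockout library with more keratinocyte marker counts, replicate 1; whether skin contributed was not tested. CXCL10, an interferon-induced ligand of CXCR3, reached 1.14 and 0.417 CPM in knockout E62 against 0.1805 and 0.147 in wild type. Its log2 fold change was 2.23 ± 0.69, adjusted p = 0.0303, or 1.32 without knockout E62 replicate 1. CXCL10 lost this call, by adjusted p, without either knockout E41 library (0.058 and 0.058), without either wild-type E62 library (0.11 and 0.13) and without knockout E62 replicate 1 (0.22). CXCL2 was not called, and CXCL8, CXCL9, CXCL11 and the receptor CXCR3 did not pass the filter, with at most 14 counts in any library.

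Among the 7 tested CC chemokine receptors, CCR3 rose at both stages and CCR9 fell at E41. CCR3, the eotaxin receptor, was at 2.51 and 1.15 CPM in E41 wild type, 4.41 and 6.601 in E41 knockout, 2.02 and 1.53 in E62 wild type, and 5.21 and 7.41 in E62 knockout. All 4 knockout libraries lay above all 4 wild-type libraries, by 1.59 ± 0.42, adjusted p = 0.019 at E41 and 1.83 ± 0.41, adjusted p = 0.0077 at E62. CCR3 lost the E41 call, by adjusted p, without wild-type E41 replicate 2 (0.0799) and without knockout E41 replicate 2 (0.11). The E62 call was lost without wild-type E62 replicate 2 (0.056). CCR1, which binds CCL3, CCL5 and CCL14, was at 0.966 and 0.619 CPM in E41 wild type, 1.61 and 1.65 in E41 knockout, 2.65 and 4.09 in E62 wild type, and 5.13 and 3.49 in E62 knockout. It was not called between genotypes (1.04 ± 0.39, adjusted p = 0.066 at E41 and 0.36 ± 0.35, adjusted p = 0.42 at E62), and the E62 libraries were above the E41 libraries in both genotypes.

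CCR9, the receptor of CCL25 on thymocytes, was the CC receptor that fell: it had 21 and 9 counts in E41 wild type, 2 and 2 in E41 knockout, 4 and 6 in E62 wild type, and 10 and 15 in E62 knockout. The log2 change at E41 was -3.93 ± 0.83, adjusted p = 0.0077, lost without either knockout E41 library (adjusted p = 0.065 and 0.064). The E62 change was 0.41 ± 0.74, adjusted p = 0.67. CXCR5, the CXCL13 receptor of B cells, had 0 and 0 counts in E41 wild type, 25 and 9 in E41 knockout, 1 and 4 in E62 wild type, and 20 and 76 in E62 knockout. At E41 it was at least 5.31-fold higher in the knockout, taking 3 counts as the floor of an empty group. CXCR5 lost this call, by adjusted p, without either wild-type E41 library (0.12 and 0.14), without either knockout E41 library (0.14 and 0.0601) and without either wild-type E62 library (0.057 and 0.057). At E62 its log2 change was 3.34 ± 1.103, adjusted p = 0.044, or 1.94 without knockout E62 replicate 2, and that call was also lost without either knockout E41 library (0.06 and 0.058), without either wild-type E62 library (0.199 and 0.091) and without knockout E62 replicate 2 (0.23). CCR6, CCR8 and CXCR6 did not pass the filter.

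Marker lists moved beside these genes. Over all tested genes, 18.5% were higher and 20.8% lower at E41, and 21% and 26.2% at E62. Of 17 tested macrophage markers, 6 were higher and 1 lower at E41, and 17 were higher at E62. Their summed level was 485.8 and 314.5 CPM in E41 wild type, 539.3 and 525.5 in E41 knockout, 310.6 and 355.7 in E62 wild type, and 1450 and 1365 in E62 knockout. MARCO was at 0 in all 4 E41 libraries. Of 7 lymphatic endothelial markers, a list that holds CCL21 itself and shares LYVE1 with the macrophage list, 2 were higher at E41, and at E62 6 were higher and PDPN lower. Without CCL21 their sum was 230.6 and 159.2 CPM in E41 wild type, 255.8 and 232.2 in E41 knockout, 180.5 and 160.1 in E62 wild type, and 578.2 and 844.1 in E62 knockout. Of 11 B cell markers, 1 was higher and 0 lower at E41, where DESeq2 called 2 higher, and 9 were higher at E62. They summed to 88.74 and 63.57 CPM in E41 wild type, 162.8 and 145.3 in E41 knockout, 56.3 and 78.89 in E62 wild type, and 144.1 and 234.7 in E62 knockout. MS4A1, VPREB1 and FCRLA were at 0 in wild-type E41. Knockout E62 replicate 2, the library with the higher CXCR5, CCL19 and CCL26, had 15.3 CPM of PAX5 against 2.36 in replicate 1. T and NK cell markers (6 of 12 higher at E62) summed to at most 35.58 CPM in any library, with KLRK1 at 0 in 3 of the 4 groups. At E41 their sum was 23.91 and 21.54 CPM in wild type and 13.26 and 14.14 in knockout, with 0 markers higher and 1 lower. DESeq2 called 1 higher and 1 lower there. The median log2 change of these markers at E41 was 1.146, opposite in direction to the sum. It was 0.548 with genes of 3 counts or fewer in a group set at the bound their counts give. Of 14 tested fibroblast markers, 8 were higher and 1 lower at E41, and 10 were higher at E62. They summed to 39070 and 23370 CPM in E41 wild type, 50710 and 54760 in E41 knockout, 26720 and 47000 in E62 wild type, and 86940 and 93080 in E62 knockout. Of 13 blood endothelial markers, 5 were higher at each stage. The part of these cells was not tested, either in the chemokine results or in those of IL33, IL7, IL11RA and CXCL14, genes known from connective tissue.

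**Figure D4:**
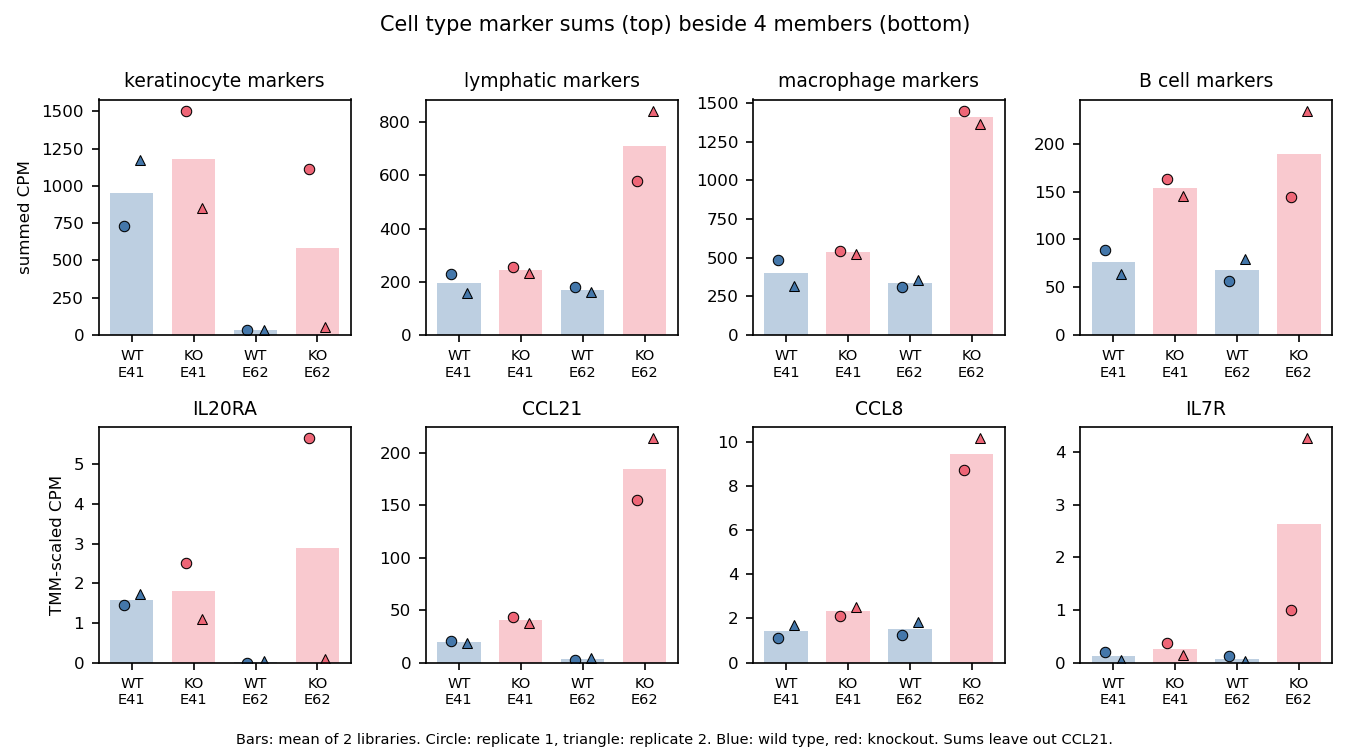
Points in the top row give the summed TMM-scaled CPM of 4 marker lists in each library, with CCL21 left out, and in the bottom row the CPM of 4 members; circles are replicate 1, triangles replicate 2, and bars the mean of the 2 libraries, on linear axes from 0. Macrophage sums are 1450 and 1365 CPM in knockout E62 and 310.6 to 539.3 elsewhere, and the keratinocyte sum of knockout E62 is 1113 CPM in replicate 1 and 54 in replicate 2.

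Of 31 interleukin ligands 14 were tested: IL16, IL17D and IL34 rose and IL17B and IL18 fell at E41, while at E62 IL33, IL7, IL16, IL34, IL6 and IL1A rose and IL17B, IL18 and IL17D fell. Called ligands made up 35.7% of the 14 at E41 and 64.3% at E62, beside 39.2% and 47.2% of all tested genes. IL17B (ENSSSCG00000014434, chromosome 2, 150513611 to 150583640), an IL-17 family cytokine that binds IL17RB, was at 16.3 and 19.2 CPM in E41 wild type, 2.497 and 2.08 in E41 knockout, 38.4 and 28.9 in E62 wild type, and 1.92 and 1.89 in E62 knockout. All 4 knockout libraries were at 2.497 CPM or less and all wild-type libraries at 16.3 or more. The log2 change was -2.96 ± 0.19, adjusted p = 3.7e-05 at E41 and -4.14 ± 0.2, adjusted p = 3.7e-06 at E62, with a difference between stages of -1.19 ± 0.26, adjusted p = 0.014. IL17B lost that difference between stages without knockout E41 replicate 1 (adjusted p = 0.056). Its receptor IL17RB was at 5.46 and 8.41 CPM in E41 wild type, 4.84 and 5.17 in E41 knockout, 7.13 and 6.597 in E62 wild type, and 7.29 and 7.58 in E62 knockout, with log2 changes of -0.47 ± 0.23, adjusted p = 0.14 and 0.12 ± 0.23, adjusted p = 0.69.

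IL18 (ENSSSCG00000015037, chromosome 9, 39839959 to 39861258), an IL-1 family cytokine released in active form by inflammasomes, was at 28.5 and 35.7 CPM in E41 wild type, 5.75 and 5.02 in E41 knockout, 16.5 and 15.5 in E62 wild type, and 11.9 and 7.79 in E62 knockout. The knockout was below the wild type at both stages, with log2 changes of -2.58 ± 0.22, adjusted p = 0.00016 at E41 and -0.7 ± 0.21, adjusted p = 0.027 at E62. The gap was narrower at E62, with a difference between stages of 1.88 ± 0.301, adjusted p = 0.0046. Wild-type IL18 fell from E41 to E62 (-1.005 ± 0.21, adjusted p = 0.0079) while knockout IL18 rose (0.87 ± 0.21, adjusted p = 0.0201). At E62 the fall was -0.43 without knockout E62 replicate 2. IL18 lost that call, by adjusted p, without either wild-type E62 library (0.103 and 0.068), without knockout E62 replicate 2 (0.11) and with library size alone (0.15). Leaving out wild-type E41 replicate 2 or wild-type E62 replicate 2 ended the wild-type stage call (adjusted p = 0.063 and 0.060), and the knockout one was lost without either knockout E41 library (0.077 and 0.12) and without knockout E62 replicate 1 (0.077). IL18R1, its receptor chain, was at 3.57 and 1.902 CPM in E41 wild type, 2.41 and 3.19 in E41 knockout, 1.74 and 1.97 in E62 wild type, and 4.66 and 5.79 in E62 knockout and rose at E62 by 1.49 ± 0.35, adjusted p = 0.0095. IL18R1 lost this call, by adjusted p, without wild-type E62 replicate 1 (0.063), and the second chain, IL18RAP, did not pass the filter.

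IL33 (ENSSSCG00000005203, chromosome 1, 215899830 to 215941944), a nuclear alarmin of stromal and endothelial cells, was at 6.42 and 5.84 CPM in E41 wild type, 12.3 and 8.84 in E41 knockout, 23.5 and 34.4 in E62 wild type, and 82.8 and 181 in E62 knockout. The knockout E62 libraries were highest and lay apart, with no overlap with the wild type at either stage. Its log2 fold change was 2.19 ± 0.41, adjusted p = 0.0075 at E62 and 0.79 ± 0.44, adjusted p = 0.21 at E41. IL33 lost the E62 call, by adjusted p, without wild-type E62 replicate 1 (0.057). IL1RL1, the IL33 receptor chain, was at 1.74 and 1.68 CPM in E41 wild type, 2.54 and 2.08 in E41 knockout, 0.692 and 0.324 in E62 wild type, and 1.36 and 1.67 in E62 knockout. It rose at E62 by 1.57 ± 0.43, adjusted p = 0.018. IL1RL1 lost this call, by adjusted p, without wild-type E62 replicate 2 (0.091) and without knockout E62 replicate 2 (0.0602). The partner chain IL1RAP was at 1.64 and 2.96 CPM in E41 wild type, 2.84 and 3.28 in E41 knockout, 0.391 and 0.825 in E62 wild type, and 1.59 and 1.25 in E62 knockout and was not called between genotypes (1.22 ± 0.46, adjusted p = 0.0602 at E62). Of 6 tested markers of mast cells and basophils, which carry IL1RL1, GATA2 and MS4A2 were higher at both stages and HPGDS at E62, with 0 lower and a median log2 change of 1.785 at E62. Their sum, most of it KIT, lay between 34.96 and 59.29 CPM in all 8 libraries. MS4A2, a chain of the IgE receptor, was at 2.85 and 6.32 CPM in knockout E62 against 0.511 and 0.795 in wild type. The part of these cells in IL1RL1 was not tested.

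IL7, the stromal cytokine of lymphocyte development, was at 1.06 and 1.19 CPM in E41 wild type, 2.497 and 2.82 in E41 knockout, 0 and 0.206 in E62 wild type, and 3.703 and 7.91 in E62 knockout. Wild-type E62 was lowest, with 0 and 7 counts, and both knockout E62 libraries were highest. Its log2 fold change was 5.76 ± 0.86, adjusted p = 0.0015 at E62 and 1.23 ± 0.67, adjusted p = 0.19 at E41, a difference of 4.53 ± 1.09, adjusted p = 0.022. Without wild-type E62 replicate 2 the E62 value rested on a group at 0 counts. IL7 lost the difference between stages, by adjusted p, without either wild-type E41 library (0.065 and 0.072) and without either knockout E41 library (0.085 and 0.074). Its receptor IL7R had 4 and 1 counts in E41 wild type, 17 and 7 in E41 knockout, 4 and 1 in E62 wild type, and 67 and 255 in E62 knockout. The log2 change of IL7R at E62 was 5.08 ± 1.06, adjusted p = 0.00596; knockout E62 replicate 2 was at 4.26 CPM and replicate 1 at 0.988.

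IL34 and IL16 rose at both stages. IL34, which shares the receptor CSF1R with CSF1 and supports macrophages, was at 3.77 and 3.01 CPM in E41 wild type, 5.98 and 7.32 in E41 knockout, 4.33 and 5.95 in E62 wild type, and 8.35 and 9.18 in E62 knockout. All 4 knockout libraries were above all 4 wild-type libraries, by 0.97 ± 0.24, adjusted p = 0.015 at E41 and 0.77 ± 0.23, adjusted p = 0.028 at E62. IL34 lost the E41 call, by adjusted p, without wild-type E41 replicate 2 (0.076) and without knockout E41 replicate 2 (0.097). The E62 call was lost without wild-type E62 replicate 1 (0.16) and without either knockout E62 library (0.054 and 0.095). CSF1R, a macrophage marker, was at 30.2 and 16.5 CPM in E41 wild type, 49.97 and 49.6 in E41 knockout, 37.7 and 42.5 in E62 wild type, and 98.4 and 114 in E62 knockout. It rose at E41 by 1.09 ± 0.26, adjusted p = 0.015 and at E62 by 1.41 ± 0.25, adjusted p = 0.0042. CSF1R lost the E41 call, by adjusted p, without either knockout E41 library (0.066 and 0.063). CSF1 rose as well, by 1.003 ± 0.3 (adjusted p = 0.038) and 1.11 ± 0.29 (adjusted p = 0.0203), and lost the E41 call without wild-type E41 replicate 2 (0.16) and without either knockout E41 library (0.101 and 0.14) and the E62 call without wild-type E62 replicate 1 (0.079) and without knockout E62 replicate 2 (0.079). IL16, a chemoattractant for CD4+ cells, was at 3.82 and 2.57 CPM in E41 wild type, 5.21 and 7.56 in E41 knockout, 1.77 and 2.798 in E62 wild type, and 6.05 and 6.42 in E62 knockout, higher in all 4 knockout libraries, by 1.002 ± 0.32, adjusted p = 0.041 and 1.45 ± 0.32, adjusted p = 0.0078. IL16 lost the E41 call, by adjusted p, without wild-type E41 replicate 2 (0.18) and without either knockout E41 library (0.057 and 0.23). The E62 call was lost without wild-type E62 replicate 1 (0.056).

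IL17D, another IL-17 family member, was at 11.4 and 11.9 CPM in E41 wild type, 16.5 and 14.5 in E41 knockout, 20.5 and 22 in E62 wild type, and 14.4 and 17.2 in E62 knockout. The groups did not overlap at either stage and the order turned, from 0.41 ± 0.14, adjusted p = 0.045 at E41 to -0.43 ± 0.13, adjusted p = 0.0303 at E62. The difference was -0.85 ± 0.19, adjusted p = 0.016, lost without knockout E41 replicate 1 (adjusted p = 0.066). IL17D lost the E41 call, by adjusted p, without either wild-type E41 library (0.12 and 0.094), without either knockout E41 library (0.23 and 0.075) and with DESeq2 (0.065). The E62 call was lost without either wild-type E62 library (0.065 and 0.12), without knockout E62 replicate 1 (0.15), with DESeq2 (0.059) and with library size alone (0.47). IL6, the cytokine read by IL6R, had 2 and 1 counts in E41 wild type, 5 and 2 in E41 knockout, 0 and 1 in E62 wild type, and 46 and 16 in E62 knockout. At E62 it was 32.6-fold higher (95% counting interval 5.64 to 1309) by summed counts. IL6 lost the call, by adjusted p, without wild-type E62 replicate 1 (0.079) and without knockout E62 replicate 1 (0.061). IL1A, an IL-1 receptor agonist, was at 0.605 and 0.451 CPM in knockout E62 against 0.0902 and 0.0883 in wild type, 2.53 ± 0.61, adjusted p = 0.011. It lost the call, by adjusted p, without either wild-type E62 library (0.0701 and 0.066) and without knockout E62 replicate 1 (0.057). IL10, IL11, IL15, IL17C and IL19 were tested and not called between genotypes. The 17 ligands that did not pass the filter included IL2, IL4, IL5, IL13 and IL17A, the T cell cytokines, and IL21, IL24, IL27 and IL9 had 0 counts in every library.

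**Figure D5:**
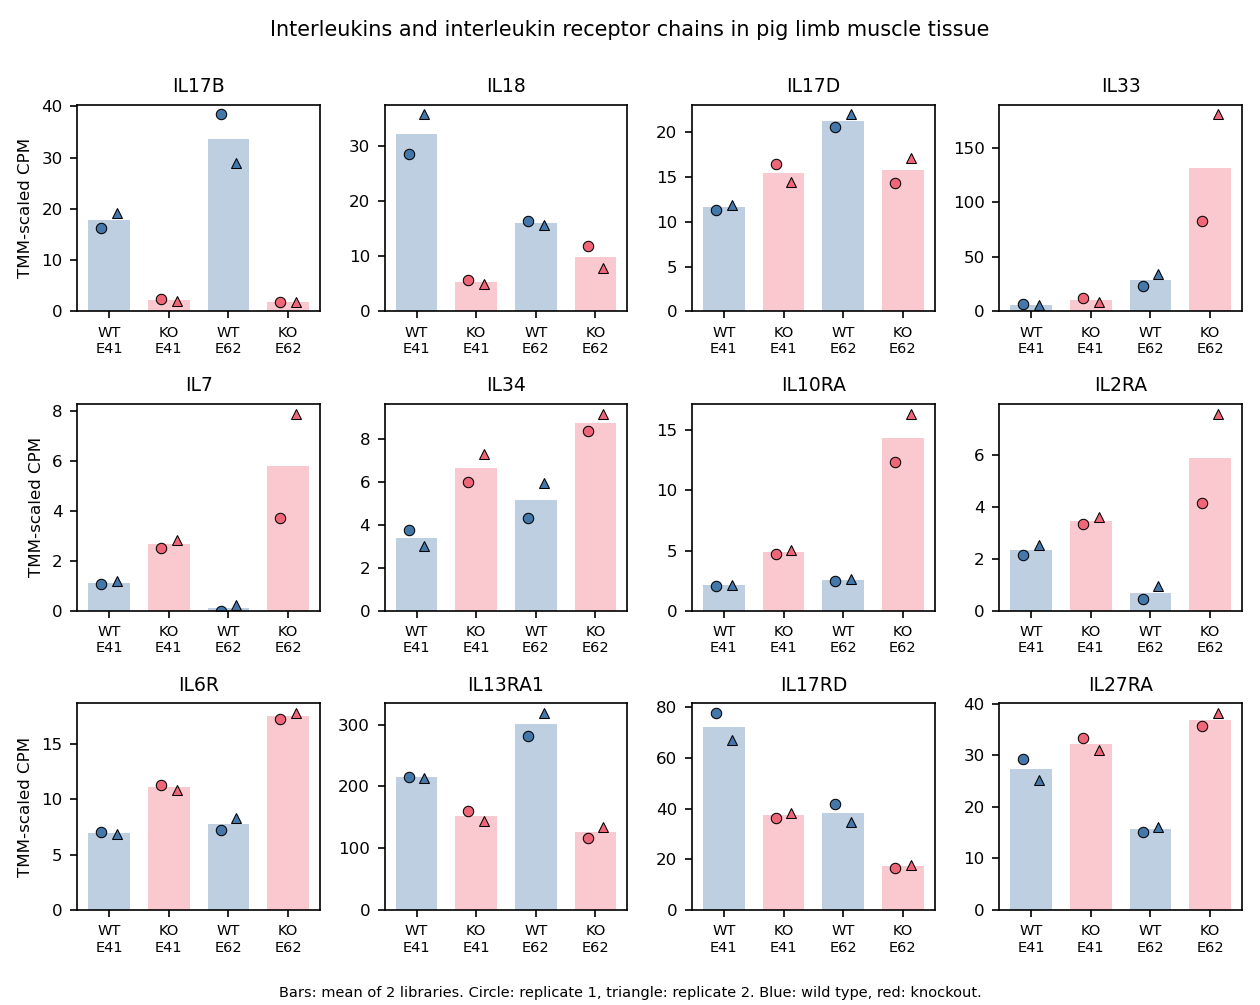
Points give TMM-scaled CPM of each library for interleukin ligands and receptor chains, circles for replicate 1 and triangles for replicate 2, and bars give the mean of the 2 libraries of a group; each panel has its own axis from 0. IL17B lies at 1.89 to 2.497 CPM in the 4 knockout libraries and at 16.3 to 38.4 in wild type, and IL33 is highest in knockout E62, at 82.8 and 181 CPM.

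Of 36 interleukin receptor chains 33 were tested, with 9 higher and 3 lower at E41 and 13 higher and 7 lower at E62. Called chains made up 36.4% at E41 and 60.6% at E62, beside 39.2% and 47.2% of all tested genes. Lower calls at E62 were 21.2% of the chains, beside 26.2% of all tested genes. IL6R, IL11RA and IL27RA pair with IL6ST (gp130), the chain that signals to STAT3. IL11RA (ENSSSCG00000010968, chromosome 10, 32138984 to 32149315), the IL-11 receptor of stromal cells, was at 108 and 117 CPM in E41 wild type, 218 and 219.7 in E41 knockout, 103 and 116 in E62 wild type, and 154 and 193 in E62 knockout. Every knockout library was above every wild-type library, by 0.96 ± 0.12, adjusted p = 0.00088 at E41 and 0.66 ± 0.12, adjusted p = 0.0033 at E62. IL6R was at 7.05 and 6.901 CPM in E41 wild type, 11.3 and 10.9 in E41 knockout, 7.25 and 8.33 in E62 wild type, and 17.2 and 17.8 in E62 knockout, also without overlap, by 0.67 ± 0.14, adjusted p = 0.0075 and 1.17 ± 0.14, adjusted p = 0.00039. IL6R lost the E41 call without knockout E41 replicate 1 (adjusted p = 0.053). IL27RA, the receptor of IL-27, was at 29.3 and 25.3 CPM in E41 wild type, 33.3 and 31.1 in E41 knockout, 15.2 and 16.05 in E62 wild type, and 35.6 and 38.2 in E62 knockout. Wild-type E62 was the low group, and the change at E62 was 1.24 ± 0.11, adjusted p = 9.0e-05 against 0.24 ± 0.11, adjusted p = 0.12 at E41, a difference of 1.001 ± 0.15, adjusted p = 0.0039. EBI3, the subunit that IL-27 shares with IL-35, rose at E62 by 2.27 ± 0.35, adjusted p = 0.0014, and IL27, the other subunit, had 0 counts.

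IL6ST itself was at 221 and 173 CPM in E41 wild type, 265 and 273 in E41 knockout, 191 and 187 in E62 wild type, and 196 and 238 in E62 knockout. It rose at E41 by 0.45 ± 0.14, adjusted p = 0.036, and the value was 0.68 without wild-type E41 replicate 1 and 0.298 without replicate 2. IL6ST lost this call, by adjusted p, without wild-type E41 replicate 2 (0.16) and without either knockout E41 library (0.11 and 0.13). The E62 change was 0.2 ± 0.14, adjusted p = 0.27. LIFR, the gp130 partner for leukaemia inhibitory factor, went the other way and fell, with log2 changes of -0.72 ± 0.13 (adjusted p = 0.0039) and -0.95 ± 0.13 (adjusted p = 0.00079) at E41 and E62. OSMR, the oncostatin M chain, rose at E62 by 0.74 ± 0.18, adjusted p = 0.0099. That call was lost without wild-type E62 replicate 1 (0.067) and without knockout E62 replicate 2 (0.058).

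The 3 chains of the IL-2 receptor rose at E62. IL2RG is the shared chain of the IL-2, IL-4, IL-7, IL-9, IL-15 and IL-21 receptors, and IL2RA and IL2RB are IL-2 receptor chains of activated and natural killer lymphocytes. IL2RA was at 2.13 and 2.52 CPM in E41 wild type, 3.32 and 3.58 in E41 knockout, 0.451 and 0.942 in E62 wild type, and 4.15 and 7.58 in E62 knockout, with wild-type E62 lowest and knockout E62 highest. Its log2 change at E62 was 3.06 ± 0.44, adjusted p = 0.00097, larger than at E41 by 2.496 ± 0.59, adjusted p = 0.018. IL2RB was at 1.11 and 0.531 CPM in E41 wild type, 2.52 and 2.39 in E41 knockout, 0.331 and 0.412 in E62 wild type, and 1.67 and 2.24 in E62 knockout, with all 4 knockout libraries above all 4 wild-type libraries, by 1.58 ± 0.43, adjusted p = 0.023 and 2.38 ± 0.45, adjusted p = 0.0036. IL2RG was at 3.82 and 3.54 CPM in E41 wild type, 3.92 and 3.41 in E41 knockout, 2.59 and 2.65 in E62 wild type, and 5.27 and 9.61 in E62 knockout. It rose at E62 by 1.505 ± 0.31, adjusted p = 0.0052. The E41 change was -0.01 ± 0.31, adjusted p = 0.99. The E41 call of IL2RB was lost without wild-type E41 replicate 2 (0.079) and without either knockout E41 library (0.098 and 0.083), by adjusted p. The differences between stages were lost for IL2RA without wild-type E41 replicate 2 (0.055), without either knockout E41 library (0.069 and 0.0604) and without wild-type E62 replicate 1 (0.051), and for IL2RG (log2 1.51 ± 0.43, adjusted p = 0.037) without either wild-type E41 library (0.096 and 0.074), without either knockout E41 library (0.092 and 0.12), without either wild-type E62 library (0.098 and 0.0903) and without knockout E62 replicate 2 (0.081). IL9R and IL21R were not called. JAK3, the kinase that binds this chain, rose by 1.02 ± 0.23 (adjusted p = 0.011) at E41 and 2.59 ± 0.24 (adjusted p = 0.000105) at E62, and lost the E41 call without wild-type E41 replicate 2 (0.064) and without knockout E41 replicate 1 (0.06).

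The 2 chains of the IL-10 receptor moved in opposite directions. IL10RA, the ligand-binding chain of leukocytes, was at 2.03 and 2.17 CPM in E41 wild type, 4.67 and 5.02 in E41 knockout, 2.47 and 2.65 in E62 wild type, and 12.4 and 16.4 in E62 knockout. It was higher in the knockout without overlap, by 1.21 ± 0.22, adjusted p = 0.0038 at E41 and 2.49 ± 0.21, adjusted p = 7.7e-05 at E62, with a difference of 1.29 ± 0.298, adjusted p = 0.017. IL10RB, the broadly expressed second chain, which also serves IL-22 and interferon lambda, was at 14.4 and 10.1 CPM in E41 wild type, 7.92 and 5.797 in E41 knockout, 21.3 and 21.3 in E62 wild type, and 9.01 and 10.4 in E62 knockout. It was lower, with log2 changes of -0.84 ± 0.22, adjusted p = 0.019 at E41 and -1.14 ± 0.21, adjusted p = 0.0035 at E62. Without wild-type E41 replicate 1 the E41 value was -0.51. IL10RB lost that call, by adjusted p, without wild-type E41 replicate 1 (0.13), without knockout E41 replicate 2 (0.12) and with library size alone (0.077). IL10RA lost the difference between stages, by adjusted p, without either knockout E41 library (0.073 and 0.057), without wild-type E62 replicate 1 (0.052) and without knockout E62 replicate 2 (0.052). IL10 itself was at 0.628 and 0.133 CPM in E41 wild type, 0.646 and 1.06 in E41 knockout, 0.511 and 0.618 in E62 wild type, and 1.59 and 1.69 in E62 knockout, with log2 1.53 ± 0.61, adjusted p = 0.0701 at E62.

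IL13RA1 (ENSSSCG00000012633, chromosome X, 97300960 to 97353754), which with IL4R forms the type II receptor for IL-4 and IL-13, was at 216 and 214 CPM in E41 wild type, 161 and 144 in E41 knockout, 282 and 319 in E62 wild type, and 117 and 134 in E62 knockout. Every knockout library was below every wild-type library, with log2 changes of -0.49 ± 0.11, adjusted p = 0.0103 at E41 and -1.26 ± 0.11, adjusted p = 9.6e-05 at E62, and a difference between stages of -0.77 ± 0.16, adjusted p = 0.011. IL13RA1 lost the E41 call, by adjusted p, without wild-type E41 replicate 1 (0.062), without knockout E41 replicate 2 (0.085) and with library size alone (0.18). IL4R was at 14.6 and 14.6 CPM in E41 wild type, 22.5 and 21.2 in E41 knockout, 27.7 and 20.7 in E62 wild type, and 20.6 and 25.7 in E62 knockout. It rose at E41 by 0.58 ± 0.17, adjusted p = 0.027, with -0.07 ± 0.16, adjusted p = 0.76 at E62. IL4R lost the E41 call, by adjusted p, without either wild-type E41 library (0.082 and 0.094) and without either knockout E41 library (0.12 and 0.075). IL13RA2, the decoy that binds IL-13, was at 0.386 and 0.575 CPM in E41 wild type, 0.409 and 0.76 in E41 knockout, 6.23 and 4.8 in E62 wild type, and 1.65 and 3.104 in E62 knockout, with the high libraries in wild-type E62 and a log2 fold change of -1.21 ± 0.42, adjusted p = 0.047. IL13RA2 lost this call, by adjusted p, without either wild-type E41 library (0.055 and 0.055), without knockout E41 replicate 2 (0.0503), without either wild-type E62 library (0.201 and 0.084), without knockout E62 replicate 1 (0.17), with relative log expression factors (0.054) and with library size alone (0.11). IL4 and IL13 themselves did not pass the filter.

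Among receptor chains named for IL-17 and IL-1, IL17RD fell at both stages. IL17RD (ENSSSCG00000011463, chromosome 13, 38935631 to 39006721), also known as SEF, a membrane protein that dampens fibroblast growth factor signalling, was at 77.8 and 66.98 CPM in E41 wild type, 36.2 and 38.5 in E41 knockout, 42.02 and 34.7 in E62 wild type, and 16.4 and 17.9 in E62 knockout. The knockout was lower at both stages, with log2 changes of -0.96 ± 0.12, adjusted p = 0.00093 and -1.16 ± 0.13, adjusted p = 0.00025, and both genotypes were lower at E62 than at E41. IL17RA, the chain shared by IL-17 cytokines, was at 23.2 and 20.7 CPM in E41 wild type, 22.04 and 21.9 in E41 knockout, 30.2 and 24.9 in E62 wild type, and 16.2 and 22.2 in E62 knockout, with -0.001 ± 0.17, adjusted p = 0.997 at E41 and -0.52 ± 0.17, adjusted p = 0.035 at E62. The E62 value was -0.32 without knockout E62 replicate 1. IL17RA lost this call, by adjusted p, without either knockout E41 library (0.055 and 0.054), without wild-type E62 replicate 1 (0.19), without knockout E62 replicate 1 (0.16), with relative log expression factors (0.052) and with library size alone (0.33). IL1R1, the signalling IL-1 receptor, was at 62.9 and 64.7 CPM in E41 wild type, 74.7 and 76.95 in E41 knockout, 77.7 and 82.3 in E62 wild type, and 65.3 and 69.1 in E62 knockout. Its shifts were small, 0.25 ± 0.08, adjusted p = 0.044 at E41 and -0.25 ± 0.08, adjusted p = 0.035 at E62, with a difference of -0.5 ± 0.12, adjusted p = 0.017. With library size alone as the scaling the E62 value turned to 0.05 (adjusted p = 0.60). IL1R1 lost the E41 call, by adjusted p, without either wild-type E41 library (0.1 and 0.0898), without either knockout E41 library (0.13 and 0.18) and without either knockout E62 library (0.055 and 0.054). The E62 call was also lost without either knockout E41 library (0.064 and 0.062), without either wild-type E62 library (0.054 and 0.12), without either knockout E62 library (0.15 and 0.064), with DESeq2 (0.079), with relative log expression factors (0.066), with library size alone (0.596), and with at least 1 CPM in 2 libraries (0.0598). The decoy IL1R2 was not called.

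IL1RAPL1 and IL1RAPL2, synaptic adhesion relatives of the IL-1 receptor, moved differently. IL1RAPL1 was at 0.628 and 0.841 CPM in E41 wild type, 2.15 and 2.13 in E41 knockout, 0.271 and 0.383 in E62 wild type, and 0.752 and 0.734 in E62 knockout, higher in the knockout without overlap, by 1.54 ± 0.401, adjusted p = 0.019 and 1.18 ± 0.42, adjusted p = 0.048. IL1RAPL1 lost the E41 call, by adjusted p, without wild-type E41 replicate 1 (0.059) and without either knockout E41 library (0.096 and 0.091). The E62 call was lost without either knockout E41 library (0.104 and 0.103), without either wild-type E62 library (0.21 and 0.079), without either knockout E62 library (0.12 and 0.11), with DESeq2 (0.078) and without the low-count filter (0.0604). IL1RAPL2 was at 1.16 and 0.973 CPM in E41 wild type, 1.49 and 1.498 in E41 knockout, 1.98 and 2.03 in E62 wild type, and 0.148 and 0.868 in E62 knockout, with a log2 fold change of -1.99 ± 0.69, adjusted p = 0.045 at E62. Without knockout E62 replicate 1 that value was -1.21, without replicate 2 it was -3.74. IL1RAPL2 lost the call, by adjusted p, without either wild-type E41 library (0.0698 and 0.0698), without either knockout E41 library (0.073 and 0.073), without either wild-type E62 library (0.12 and 0.12), without knockout E62 replicate 1 (0.059) and with library size alone (0.072). Schwann cell markers summed to 619.8 and 632.5 CPM in E41 wild type, 451.6 and 346.4 in E41 knockout, 707.8 and 709.8 in E62 wild type, and 175.1 and 219.5 in E62 knockout. Of the 8 tested, 3 were higher and 1 lower at E41, with a median log2 change of 0.593, opposite in direction to the sum, and 1 was higher and 3 lower at E62, with a median of -0.649. ERBB3, a neuregulin receptor, was the marker lower at E41 and held 312 and 321 CPM of the sum in E41 wild type against 59.9 and 41.8 in E41 knockout. Their part was not tested.

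The IL-12 family chains IL12RB2 and IL23R, carried by lymphocytes, stood near 1 CPM. IL12RB2 was at 1.01 and 0.487 CPM in E41 wild type, 1.77 and 1.87 in E41 knockout, 0.752 and 0.913 in E62 wild type, and 1.67 and 1.99 in E62 knockout, with 1.28 ± 0.43, adjusted p = 0.048 at E41 and 1.13 ± 0.41, adjusted p = 0.054 at E62. Its E41 value was 1.94 without wild-type E41 replicate 1. IL12RB2 lost the E41 call, by adjusted p, without wild-type E41 replicate 2 (0.15), without either knockout E41 library (0.14 and 0.16), without either wild-type E62 library (0.062 and 0.063), without either knockout E62 library (0.056 and 0.058) and without the low-count filter (0.053). IL23R rose at E62 to 1.003 and 1.502 CPM from 0.241 and 0.177 in wild type (2.57 ± 0.75, adjusted p = 0.024). It lost the call, by adjusted p, without either wild-type E62 library (0.094 and 0.12) and without knockout E62 replicate 2 (0.082). IL12RB1, the chain both receptors share, did not pass the filter.

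Receptor chains known from skin were high in 1 of the 2 knockout E62 libraries. IL20RA, a chain of the IL-20 subfamily receptors of epithelia, had 30 and 39 counts in E41 wild type, 116 and 50 in E41 knockout, 0 and 1 in E62 wild type, and 383 and 6 in E62 knockout. Of the knockout E62 libraries replicate 1 held nearly all counts. At E62 the knockout was 205-fold higher (95% counting interval 36.5 to 8106) by summed counts. Without knockout E62 replicate 1 the fitted log2 change was 2.501. IL20RA lost the call, by adjusted p, without either wild-type E41 library (0.088 and 0.086), without either knockout E41 library (0.075 and 0.0797), without either wild-type E62 library (0.203 and 0.16), without knockout E62 replicate 1 (0.18) and without the low-count filter (0.068). Its partner IL20RB was at 1.55 and 2.48 CPM in E41 wild type, 3.29 and 2.497 in E41 knockout, 0.662 and 0.324 in E62 wild type, and 5.93 and 0.551 in E62 knockout and was not called (2.71 ± 1.06, adjusted p = 0.075 at E62). IL1RL2, the IL-36 receptor, had 21 and 36 counts in E41 wild type, 44 and 10 in E41 knockout, 1 and 1 in E62 wild type, and 149 and 5 in E62 knockout. IL22RA1, the IL-22 receptor, had 9 and 20 counts in E41 wild type, 49 and 15 in E41 knockout, 2 and 0 in E62 wild type, and 51 and 0 in E62 knockout. Neither was called. Keratinocyte markers summed to 730.2 and 1173 CPM in E41 wild type, 1505 and 853.8 in E41 knockout, 29.71 and 34.84 in E62 wild type, and 1113 and 54 in E62 knockout. At E62 2 of the 9 tested were higher and 0 lower, beside 21% and 26.2% of all tested genes. DESeq2 called 6 of them higher, and 4 were higher in edgeR at an unadjusted p under 0.05. IL20RA, IL20RB, IL1RL2 and IL22RA1 were thus low in wild-type E62 and knockout E62 replicate 2, the 3 libraries with the lowest keratinocyte sums. The part of skin in these values was not tested.

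From E41 to E62, 10 members rose and 12 fell in wild type, 29.7% of the 74, where 39.8% of all tested genes were called (19.8% higher and 20% lower). In the knockout 15 rose and 3 fell, 24.3%, beside 30.1% of all tested genes (12.1% higher and 18% lower). Stages did not overlap for 52 of the 74 in wild type and 53 in the knockout, where 70.8% and 75.3% of all tested genes did not. These comparisons share libraries with those of genotype, so their values are set side by side. CCL21 fell in wild type, with a log2 fold change of -2.502 ± 0.24, adjusted p = 0.00054 and rose in the knockout, 2.17 ± 0.21, adjusted p = 0.0013. CXCL14 fell in both, with log2 changes of -4.41 ± 0.64, adjusted p = 0.0045 in wild type and -2.31 ± 0.58, adjusted p = 0.034 in the knockout. In the knockout CXCL14 lost the call, by adjusted p, without either knockout E41 library (0.15 and 0.081), without either wild-type E62 library (0.0503 and 0.0503), without knockout E62 replicate 2 (0.0795) and without the low-count filter (0.051). IL33 rose in both, 2.24 ± 0.44, adjusted p = 0.012 in wild type and 3.64 ± 0.44, adjusted p = 0.0038 in the knockout, and lost the wild-type call without either wild-type E41 library (0.055 and 0.063) and without wild-type E62 replicate 2 (0.053). IL13RA2 rose in both, 3.51 ± 0.502, adjusted p = 0.0017 and 2.02 ± 0.45, adjusted p = 0.015, and the knockout call was lost without knockout E41 replicate 1 (0.104) and without knockout E62 replicate 2 (0.063). IL17B rose in wild type by 0.92 ± 0.18, adjusted p = 0.0054, with -0.27 ± 0.19, adjusted p = 0.31 in the knockout.

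Among the other wild-type changes, IL27RA, IL7, IL2RA, CCL5, IL1RL1, IL1RAP and CCR9 fell, and CCR1, IL4R, IL1R1, IL10RB, IL13RA1, IL17D and CCL4 rose. The largest of these falls by fitted value was IL7, at -3.41 ± 0.89, adjusted p = 0.021, lost without either wild-type E41 library (adjusted p = 0.072 and 0.085). The fall of CCR9 was lost in 10 of 13 alternatives, with DESeq2 (0.093), without the low-count filter (0.064) and on leaving out any library other than wild-type E41 replicate 2 (0.059 to 0.25). Without wild-type E41 replicate 1 its log2 value was -1.32, against -2.22 with all libraries. The rise of CCL4 was lost in 7 of 14, without the low-count filter (0.052) and on leaving out any library other than wild-type E41 replicate 2 and wild-type E62 replicate 1 (0.053 to 0.21). Its log2 value was 1.84 with all libraries and 2.96 without wild-type E41 replicate 2. CCL5 lost its wild-type call without wild-type E41 replicate 1 (0.067) and without either wild-type E62 library (0.056 and 0.107). IL2RA lost it without either wild-type E41 library (0.0504 and 0.076) and without wild-type E62 replicate 1 (0.091). IL10RB lost it without wild-type E41 replicate 2 (0.083) and without either wild-type E62 library (0.059 and 0.064). IL1RL1 lost it without wild-type E41 replicate 1 (0.055) and wild-type E62 replicate 2 (0.0904), each left out alone. IL1RAP lost it without wild-type E41 replicate 2 (0.086) and wild-type E62 replicate 1 (0.083), each left out alone. CCR1 rose by 2.09 ± 0.39, adjusted p = 0.0049 and IL27RA fell with a log2 fold change of -0.804 ± 0.11, adjusted p = 0.0014. IL19, an IL-20 subfamily cytokine, was at least 19.7-fold lower at E62 than at E41 in wild type. It had 12 and 26 counts in E41 wild type, 54 and 43 in E41 knockout, 0 and 0 in E62 wild type, and 12 and 0 in E62 knockout. It lost the call, by adjusted p, without either wild-type E41 library (0.053 and 0.087) and without either wild-type E62 library (0.071 and 0.077). In the knockout, CCL8 rose by 2.02 ± 0.304, adjusted p = 0.0036, IL10RA by 1.57 ± 0.204, adjusted p = 0.0022 and CCL5 by 1.91 ± 0.404, adjusted p = 0.012, the last lost without knockout E41 replicate 2 (adjusted p = 0.094). CCL2, CCL4, CCL14, CCR1, IL6R, IL2RG and IL7R also rose there, and each lost that call without either knockout E41 library, with adjusted p between 0.073 and 0.22. Those of CCL2, CCL4, IL6R, IL2RG and IL7R were also lost without knockout E62 replicate 2, that of CCR1 without replicate 1 and that of CCL14 without either (0.053 to 0.22). IL2RG lost it without wild-type E62 replicate 2 as well (0.05). The log2 value of IL7R was 3.32 with all libraries and 1.92 without knockout E62 replicate 2. The number of members called in the knockout fell to 6 of 77 tested without either knockout E41 library, where calls over all genes fell from 5126 to 1906 and 2245. In wild type it fell to 14 of 77 without wild-type E62 replicate 2, where calls over all genes fell from 6782 to 4491.

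In RefSeq's annotation of Sscrofa11.1, matched by symbol for all 105 genes, several members lie in clusters. CCL21, CCL19, CCL27 and IL11RA lie together on chromosome 10 between 32093783 and 32149315; 2 of the 4 rose at E41 and 3 at E62 in knockout tissue. On chromosome 12, CCL4, CCL3L1, CCL14, CCL16 and CCL5 lie between 39479190 and 39659121, with 3 of 4 tested higher at E62, and CCL1, CCL8, CCL11 and CCL2 between 40728014 and 40800013, with 2 of 3 tested higher. IL18RAP, IL18R1, IL1RL1, IL1RL2, IL1R1 and IL1R2 lie on chromosome 3 between 51762111 and 52406393, with 2 of 5 tested higher and 1 lower at E62. Neighbours in a cluster of near-identical ligands may share reads, so their values are not independent. Beside these counts, 18.5% of all tested genes were higher at E41, and 21% were higher and 26.2% lower at E62. Each cluster holds too few tested genes to compare with those shares.

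Of 12 tested genes of the chemokine system outside the symbol rule, 3 were higher and 0 lower at E41, and 6 were higher and 1 lower at E62. At E41 0 were lower at an unadjusted p under 0.05 or by DESeq2. Over all tested genes, 18.5% were higher and 20.8% lower at E41, and 21% and 26.2% at E62. ACKR2, a decoy that removes inflammatory CC chemokines on lymphatic endothelium, was at 3.53 and 3.49 CPM in E41 wild type, 11.8 and 12.98 in E41 knockout, 8.75 and 18.02 in E62 wild type, and 39.9 and 60.4 in E62 knockout. It rose by 1.82 ± 0.38, adjusted p = 0.0102 at E41 and 1.903 ± 0.35, adjusted p = 0.0047 at E62. ACKR2 lost the E41 call, by adjusted p, without either wild-type E41 library (0.064 and 0.068) and without knockout E41 replicate 2 (0.0502). RARRES2, which encodes the attractant chemerin, rose by 0.77 ± 0.15 (adjusted p = 0.0062) and 0.71 ± 0.15 (adjusted p = 0.0063), and its receptor CMKLR1 rose at E62 by 1.35 ± 0.25, adjusted p = 0.0038. Among 19 tested cytokine receptors and partners outside the rule, 5 were higher and 2 lower at E41, and 9 were higher and 1 lower at E62. IFNGR2, the second chain of the interferon gamma receptor, turned from -0.796 ± 0.14, adjusted p = 0.0032 at E41 to 1.34 ± 0.14, adjusted p = 0.00018 at E62, with values of 29.95 and 27.5 CPM in E41 wild type, 16.9 and 16.2 in E41 knockout, 23.6 and 30.3 in E62 wild type, and 63.6 and 72.7 in E62 knockout.

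Of 22 JAK-STAT genes, 9 were higher and 3 lower at E41, and 5 were higher and 3 lower at E62. For this list and the 2 that follow, the shares over all tested genes were 18.5% higher and 20.8% lower at E41. At E62 they were 21% and 26.2%. STAT6, which acts below IL4R, rose by 0.62 ± 0.11, adjusted p = 0.00402 at E41 and 1.23 ± 0.11, adjusted p = 0.00011 at E62. PIAS1, an inhibitor of STAT proteins, fell at E62, -0.84 ± 0.103, adjusted p = 0.00045. Of 25 NF-kB and IL-1 signalling genes, 8 were higher and 0 lower at E41, and 8 were higher and 10 lower at E62. At E41 2 were lower at an unadjusted p under 0.05 and 0 by DESeq2. NFKBIZ, an IL-1-induced co-regulator, was at 0 and 0.0442 CPM in E41 wild type, 0.818 and 1.02 in E41 knockout, 0.391 and 0.589 in E62 wild type, and 6.26 and 5.07 in E62 knockout. It rose at E62 by 3.52 ± 0.43, adjusted p = 0.00046. MYD88, the adaptor of IL-1 and IL-18 receptors, rose at E41 by 0.47 ± 0.13 (adjusted p = 0.025) and at E62 by 0.97 ± 0.13 (adjusted p = 0.00076). Its E41 call was lost without wild-type E41 replicate 1 and without either knockout E41 library. At E62 IRAK1, the kinase MYD88 recruits, and NFKBIB, an NF-kB inhibitor, fell. Their log2 changes were -0.99 ± 0.12 (adjusted p = 0.000396) and -1.28 ± 0.13 (adjusted p = 0.00017). Of 19 G protein signalling genes used by chemokine receptors, 5 were higher and 1 lower at E41, and 7 were higher and 2 lower at E62. ARRB1, an arrestin that ends receptor signalling, rose at E41 by 0.57 ± 0.11 (adjusted p = 0.0048) and at E62 by 1.38 ± 0.11 (adjusted p = 5.1e-05). GRK5, a receptor kinase, rose by 0.65 ± 0.1 (adjusted p = 0.0018) at E41 and by 0.46 ± 0.099 (adjusted p = 0.0069) at E62. GNAI1, an inhibitory G protein subunit, fell at E62, -0.85 ± 0.16, adjusted p = 0.0037. RGS16, which shortens G protein signals, fell at E41, -1.85 ± 0.31, adjusted p = 0.0029.

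The 31 members that did not pass the filter had at most 42 counts over the 8 libraries together and at most 0.484 CPM in any library, and 6 had 0 counts everywhere: CCL17, CCL22, IL21, IL24, IL27 and IL9. A count of 0 allows up to 3 counts in a library, counting error only, so these genes were not detectable at this depth. Among them CCR6 had 10 and 29 counts and IL18RAP 6 and 27 counts in the knockout E62 libraries, against at most 2 counts in any other library. No test was made of these 31 genes.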

How the data were processed

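The authors deposited 1 table of estimated counts per gene (expected counts), 1 column a library, whole and without normalization. Tools named in the submitters' processing notes are kallisto and DESeq2, with builds given as susScr11 and Sscrofa11.1; their versions, the annotation and any filter are not given there. Per the labels' protocols the kit was TruSeq RNA or Stranded mRNA. The strand setting of the counting is not given, so antisense genes cannot be separated from their partners, and estimated counts divide reads among close copies.

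Counts were rounded, filtered with filterByExpr (minimum count 10), which left 17020 genes with 99.98% or more of the counts of each library, TMM-scaled, and modelled by edgeR 4.0.16 under R 4.3.3, with a mean for each of the 4 groups across 8 libraries (4 residual degrees of freedom, robust quasi-likelihood, common biological coefficient of variation 0.204). The F test was two-sided, with Benjamini-Hochberg adjustment over all tested genes, and the call threshold was 0.05. SE is the absolute log2 change divided by the root of F. The 5 comparisons were knockout against wild type at each stage, the difference of these effects, and E62 against E41 in each genotype. A group with 0 counts takes 3 counts as its floor, and one with 1 to 3 counts gives a ratio with a 95% Clopper-Pearson interval; both cover counting error only. The steps were tested on simulated data.

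Named are members called in any comparison with a mean of at least 1 CPM or with 10 CPM in any group; other called members are named more briefly, with chosen partners, and from each pathway list up to 4 genes with the smallest p; a few genes that meet this rule are not reported here. The members and lists were chosen with earlier results of these data known. The 2 libraries of each group differed beyond counting noise (chi-square of 33.7 to 74.1 per degree of freedom), so each library counted as 1 sample. RefSeq's gene table for Sscrofa11.1 gave positions. The alternatives were DESeq2 1.42.0, relative log expression factors, library size alone, no low-count filter, at least 1 CPM in 2 libraries, the replicate number as a block, and each library left out.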

Additional observations from a re-analysis of the deposited data

Results flagged for a closer look

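A difference of the knockout effect between stages, tested with an interaction term in edgeR, drew attention to 15 members and 11 genes of the pathway lists. Values in brackets are the E62 log2 change minus the E41 log2 change. The effect was higher at E62 for CCL21 (4.67), IL7 (4.53), CCR9 (4.34), CCL5 (4.08), CXCL10 (3.44), IL2RA (2.50), CCL8 (1.90), IL18 (1.88), IL2RG (1.51), IL10RA (1.29) and IL27RA (1.00). It was lower at E62 for IL17B (-1.19), IL17D (-0.85), IL13RA1 (-0.77) and IL1R1 (-0.50). IL18 is on the higher side although it fell at both stages, as its fall was smaller at E62. Of these 15 calls, those of CCL21, CCL5, IL13RA1, IL18 and IL27RA held under all 14 alternatives, and the others were lost under at least 1. IL2RG lost its call under 8 of 14 alternatives, CXCL10 under 7 of 13 and CCR9 under 6 of 13. IL7, IL10RA and IL2RA each lost theirs under 4 of 14, CCL8 under 3, IL1R1 under 2, and IL17B and IL17D under 1.

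Among pathway genes the effect was higher at E62 for ARRB1 (0.80), CMKLR1 (1.55), IFNGR2 (2.13), JAK3 (1.57), RGS16 (1.59) and STAT6 (0.61). It was lower at E62 for CLCF1 (-1.37), GNAI1 (-1.03), IRAK1 (-1.03), NFKBIB (-1.45) and PIAS1 (-1.12). The calls of ARRB1, IFNGR2, IRAK1, JAK3, NFKBIB and PIAS1 held under all 14 alternatives. NFKBIB, a cytoplasmic inhibitor of NF-kB, and IRAK1, a kinase below the IL-1 receptor, were lower in the knockout at E62 and not called at E41, while IFNGR2 was lower at E41 and higher at E62. CLCF1 lost its difference, by adjusted p, without either wild-type E41 library (0.093 and 0.051), without either knockout E41 library (0.086 and 0.16), without either wild-type E62 library (0.067 and 0.092) and without knockout E62 replicate 1 (0.096). STAT6 lost it without either wild-type E41 library (0.074 and 0.078), without either knockout E41 library (0.0798 and 0.086), without wild-type E62 replicate 1 (0.076) and without knockout E62 replicate 2 (0.061), RGS16 without wild-type E41 replicate 2 (0.085), without either knockout E41 library (0.11 and 0.072), without wild-type E62 replicate 2 (0.088) and without knockout E62 replicate 2 (0.068), CMKLR1 without either knockout E41 library (0.067 and 0.053) and without wild-type E62 replicate 1 (0.074) and GNAI1 without knockout E41 replicate 2 (0.052). Groups of 2 libraries are too small to single out a library as an outlier.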

How the results depend on the processing

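For the 119 called changes of members, 1656 values under 14 alternatives gave 1364 with the same direction and call, 291 with the same direction and no call, and 1 of the opposite sign; 45 of the 119 kept their call throughout. The opposite sign was IL1R1 at E62 with library size alone, at a log2 fold change of 0.054 (adjusted p = 0.596). Leaving out each library gave 7 to 21 called members at E41, 21 to 45 at E62, 5 to 22 for the difference between stages, 14 to 27 for stage in wild type and 6 to 23 for stage in the knockout. For all genes the ranges were 3927 to 6720, 5816 to 8131, 2499 to 4282, 4491 to 6885 and 1906 to 5022. With DESeq2 24 members and 5183 of all genes were called for the difference between stages, against 15 and 4553 in edgeR. Leaving out a library changed the low-count filter, so 77 members were tested, or 74 without knockout E62 replicate 2. An arm left with 1 library is assumed to vary like the other groups.

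With library size alone, the median log2 change of all genes moved from 0.089 to 0.378 at E41 and from 0.06 to 0.364 at E62. The split of members then was 21 higher and 4 lower at E41 and 39 higher and 5 lower at E62. For all genes this split was 5780 higher to 2070 lower (E41) and 6156 higher to 2717 lower (E62). Replicate numbers did not pair the samples: same-numbered libraries of different groups had deviations correlated at -0.122 to 0.081. With the replicate number as a block, 15, 38, 13, 22 and 15 members were called in the 5 comparisons in the order above, and 6114, 7512, 3851, 6109 and 4435 of all genes. Of the 119 calls, 19 missed the threshold with this block, at adjusted p from 0.0506 to 0.0963. At E41 these were CXCR5, IL16, IL17D, IL12RB2, IL1R1 and IL6ST, and at E62 CCL26, CXCL10, CXCR5, IL17RA, IL1RAPL1, IL1RAPL2 and IL20RA. For the difference between stages they were CXCL10 and IL2RG, for stage in wild type CCR9, and for stage in the knockout CXCL14, IL2RG and IL7R. With 2 libraries per group, members under 1 CPM rest on few counts, and a missed call does not show that levels were equal.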

Other observations

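A cytokine outside the symbol rule, CLCF1, which acts through CNTFR, LIFR and gp130, was higher in the knockout at both stages in edgeR. CLCF1 was at 1.16 and 1.504 CPM in E41 wild type, 5.899 and 7.38 in E41 knockout, 1.65 and 1.86 in E62 wild type, and 2.85 and 3.905 in E62 knockout, with changes of 2.31 ± 0.299, adjusted p = 0.00091 at E41 and 0.94 ± 0.28, adjusted p = 0.026 at E62, the latter lost without either knockout E41 library (0.052 and 0.056), without either wild-type E62 library (0.12 and 0.072) and without knockout E62 replicate 2 (0.12). CNTFR, the binding chain, was at 41.1 and 38.05 CPM in E41 wild type, 83.8 and 76.3 in E41 knockout, 83.7 and 60.4 in E62 wild type, and 51.8 and 77.6 in E62 knockout, with 1.02 ± 0.22, adjusted p = 0.011 at E41, lost without wild-type E41 replicate 2 (0.067) and without knockout E41 replicate 1 (0.057), and -0.16 ± 0.22, adjusted p = 0.58 at E62. CX3CR1, the fractalkine receptor of monocytes and macrophages, was at 5.56 and 1.99 CPM in E41 wild type, 7.56 and 6.86 in E41 knockout, 4.72 and 4.36 in E62 wild type, and 11.4 and 10.2 in E62 knockout. It rose at E62 by 1.25 ± 0.39, adjusted p = 0.034. That call was lost without either knockout E41 library (0.059 and 0.059), without either wild-type E62 library (0.13 and 0.15) and without either knockout E62 library (0.092 and 0.061).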
